A study of Mus musculus with 18 samples.

Results

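The genes examined were those of the 3 main families of phase II conjugation enzymes in the mouse, the UDP-glycosyltransferases (Ugt1, Ugt2 and Ugt3), the glutathione S-transferases (Gsta, Gstk, Gstm, Gsto, Gstp, Gstt and Gstz) and the sulfotransferases (Sult). They were taken from a gene-level count table by symbol alone. The rule found 63 of 24602 genes in the table, of which 20 were Ugt, 22 Gst and 21 Sult genes. RNA-seq had been run on nuclear RNA and on total RNA of Nup93 R388W and wild-type mice of strain 129S1/SvlmJ. Nup93 encodes a scaffold protein of the nuclear pore. The 6 groups of 3 libraries were nuclear RNA of mice homozygous for R388W (nuclear Hom), heterozygous for it (nuclear Het) and wild type for Nup93 (nuclear WT), and total RNA of the same 3 genotypes (total Hom, total Het and total WT). The series text speaks of isolated podocytes and names only the homozygous and wild-type mice, while the sample labels call every library mouse tissue. Age, sex, pooling and the number of mice are not given in the sources used here. The sources do not state whether a group's 3 libraries are of different mice, so the p-values below measure the spread between libraries, which may be technical.

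Phase II enzymes attach a polar group to drugs, hormones, bile pigments and reactive products of metabolism, which makes them easier to excrete. Ugt enzymes transfer a sugar, mostly glucuronic acid from UDP-glucuronic acid, in the lumen of the endoplasmic reticulum. Gst enzymes add glutathione to electrophiles, and Sult enzymes add sulfate from the donor PAPS in the cytosol. In the kidney these enzymes are found mainly in the proximal tubule, which also takes up conjugates from blood and secretes them into urine. Each Ugt1a gene has its own promoter and first exon, and all Ugt1a genes share the remaining exons at the 3′ end.

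Levels are CPM values, a gene's count relative to the library total, adjusted with edgeR's trimmed mean of M values (TMM), with the SD of 3 libraries. Libraries held 17405493 to 23462056 counts. The deposited column of total WT replicate 1 was used only after the sum of the 9 nuclear columns had been subtracted from it. Total Hom replicate 2 stood apart in its counts of Rn45s, the ribosomal precursor RNA. Leaving Rn45s out changed neither call nor direction in the 118 named changes of conjugation enzymes that were checked. Nup93 itself averaged 20.1, 22.6 and 15.9 CPM in nuclear Hom, Het and WT and 21.1, 19.2 and 20.7 CPM in total Hom, Het and WT, which does not check a point-mutation label. Markers of the proximal tubule (20 genes, none at 0) took 5.10%, 4.63% and 6.69% of counts in nuclear Hom, Het and WT and 4.73%, 7.32% and 4.82% in total Hom, Het and WT. Markers of podocytes (12 genes, none at 0) took 0.0538% to 0.0874% in the same groups, so the libraries carried far more proximal tubule than podocyte RNA. Xist, the RNA of the inactive X chromosome, lay between 334 and 545 CPM in the 9 libraries of nuclear Hom, nuclear Het and total WT, and at 1.67 CPM or less in the other 9. Uty, Kdm5d, Eif2s3y and Ddx3y, genes of the Y chromosome, summed to at most 2.94 CPM in the first 9 libraries and to at least 151 CPM in the other 9. Every comparison with WT, and every comparison of nuclear with total RNA, therefore also sets Xist-expressing against Y-expressing libraries, and these 2 differences cannot be told apart. Nuclear WT and total Het, which both express Y-linked genes, were also the 2 lowest groups for Ugt1a2 and the 2 highest for Ugt2b37, Ugt3a2 and Kap, an abundant transcript of the proximal tubule. Whether group labels or genotypes were exchanged between the fractions was not tested, and every value stands under the label of its library. Hom against Het within a fraction does not set Xist-expressing against Y-expressing libraries, but it rests on the Hom and Het labels in the same way. The nuclear Het libraries also held a trace of Y-linked RNA beyond that of nuclear Hom. Uty averaged 0.0611 CPM in nuclear Hom and 0.673 CPM in nuclear Het, Ddx3y 0.266 and 0.795, Eif2s3y 0.237 and 0.771, and Kdm5d 0.0454 and 0.353. All were called lower in Hom. Whether this trace has a part in nuclear Hom against Het changes, such as that of Ugt2b37, was not tested.

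The promoters below belong to Ugt1a2, Ugt1a1 and Ugt1a10, neighbours in 1 locus that changed in different directions, to Ugt2b37, which covered the widest range outside that locus, and to Gsta3, a Gsta gene with a match to the motif below. Each line gives the 250 bases before the annotated start site, 5′ to 3′ on the strand of the gene, from RefSeq on GRCm38.p6 (the submitters' processing notes name mm9, and the reference strain is not the strain studied). Capitals mark TGACNNNGC or its reverse complement, the core of the antioxidant response element bound by the stress factor NRF2. Ugt1a2 is at chr1:88200361-88200610, Ugt1a1 at chr1:88211709-88211958 and Ugt1a10 at chr1:88055161-88055410, all on the plus strand, as is Gsta3 at chr1:21240335-21240584, and Ugt2b37 is at chr5:87254789-87255038 on the minus strand.
Ugt1a2: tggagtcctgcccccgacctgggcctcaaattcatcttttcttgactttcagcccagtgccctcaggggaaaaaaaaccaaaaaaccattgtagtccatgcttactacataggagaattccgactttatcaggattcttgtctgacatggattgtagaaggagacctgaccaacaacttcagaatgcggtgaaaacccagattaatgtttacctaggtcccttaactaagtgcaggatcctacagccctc
Ugt1a1: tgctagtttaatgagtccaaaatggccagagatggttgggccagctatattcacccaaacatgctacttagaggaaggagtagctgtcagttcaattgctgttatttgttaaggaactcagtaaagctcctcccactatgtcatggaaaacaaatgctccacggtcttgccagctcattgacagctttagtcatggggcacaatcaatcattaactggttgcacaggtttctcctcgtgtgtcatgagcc
Ugt1a10: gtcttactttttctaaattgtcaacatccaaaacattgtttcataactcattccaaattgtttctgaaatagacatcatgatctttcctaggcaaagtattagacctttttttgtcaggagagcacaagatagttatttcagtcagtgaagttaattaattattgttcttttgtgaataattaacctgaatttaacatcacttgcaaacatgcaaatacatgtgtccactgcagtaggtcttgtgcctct
Ugt2b37: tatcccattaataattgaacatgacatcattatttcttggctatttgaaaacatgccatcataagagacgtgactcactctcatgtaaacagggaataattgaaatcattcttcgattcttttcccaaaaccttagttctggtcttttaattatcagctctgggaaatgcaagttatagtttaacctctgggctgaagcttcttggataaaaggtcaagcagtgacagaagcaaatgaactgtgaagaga
Gsta3: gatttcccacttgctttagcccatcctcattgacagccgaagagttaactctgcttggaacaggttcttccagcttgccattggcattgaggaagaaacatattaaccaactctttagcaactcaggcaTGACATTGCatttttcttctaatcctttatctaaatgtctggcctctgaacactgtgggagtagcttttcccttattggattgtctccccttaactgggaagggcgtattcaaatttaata
Promoters were found for 55 of the 63 genes, 66 promoters in all. TGACNNNGC was present in 3 of the 66 (4.55%), in Gsta3, Gstm5 and Gstm7, and in 3338 of all 32851 mouse promoters of this length (10.2%), counted on both strands. In Gsta3 it began at -121 from the start, and the other 4 windows shown held no match. These matches describe the sequence and were not tested as sites.

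Of the 63 genes, 7 had no count in any library (Sult2a2, Sult2a4, Sult2a7, Sult2a8, Sult3a1, Ugt2a1 and Ugt2a2). Another 10 had too few counts to be tested (Gstt4, Sult1c1, Sult2a1, Sult2a5, Sult2a6, Sult3a2, Ugt2b1, Ugt2b35, Ugt2b36 and Ugt2b38), and none of these averaged above 0.233 CPM in a group. A further 14 were tested in at least 1 fit but stayed under 5 CPM in every group. They were Gsta1, Gstm3, Gstm6, Gsto2, Gstp2, Gstp3, Sult1e1, Sult2a3, Sult4a1, Sult5a1, Sult6b1, Sult6b2, Ugt1a5 and Ugt2b5, and the highest group mean among them was 4.36 CPM for Gsto2 in nuclear Hom. The other 32 reached a mean of at least 5 CPM in a group, and the levels and changes of single genes below are mainly about these. The counts of called members also take in tested members under 5 CPM. The filter kept 40 members in the nuclear fit, 42 in the total fit and 46 in the fit of all 18 libraries.

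The summed level of all 63 genes varied less than that of the Ugt1, Ugt3 or Gsta genes within it. It was 5769 ± 97.7, 4996 ± 73.3 and 5915 ± 80.0 CPM in nuclear Hom, Het and WT, and 5630 ± 45.9, 5514 ± 44.2 and 4991 ± 22.01 CPM in total Hom, Het and WT. The Ugt1 genes summed to 746 ± 10.8, 561 ± 14.8 and 231 ± 5.63 CPM in nuclear Hom, Het and WT, and to 532 ± 7.54, 171 ± 2.72 and 560.2 ± 3.89 CPM in total Hom, Het and WT. The 2 Ugt3 genes were highest in total Het and nuclear WT, where Ugt1 was lowest, with 817 ± 9.15, 667 ± 7.17 and 1527 ± 17.5 CPM in nuclear Hom, Het and WT, and 658 ± 19.7, 1709 ± 35.1 and 760.0 ± 7.38 CPM in total Hom, Het and WT. The Gsta genes, like Ugt1, were highest in nuclear Hom and lowest in total Het, at 968 ± 31.4, 657 ± 13.8 and 517 ± 5.87 CPM in nuclear Hom, Het and WT and 491 ± 0.910, 168 ± 5.96 and 657 ± 8.41 CPM in total Hom, Het and WT. Gstm moved less, between 891 ± 5.52 CPM in total Het and 1209 ± 10.7 CPM in total Hom. Sult1 was lowest in nuclear Het, at 979 ± 14.0 CPM, and highest in total Hom, at 1560 ± 28.8 CPM. Total Het held the least Ugt1 and Gsta and the most Ugt3 of the 6 groups.

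**Figure D1:**
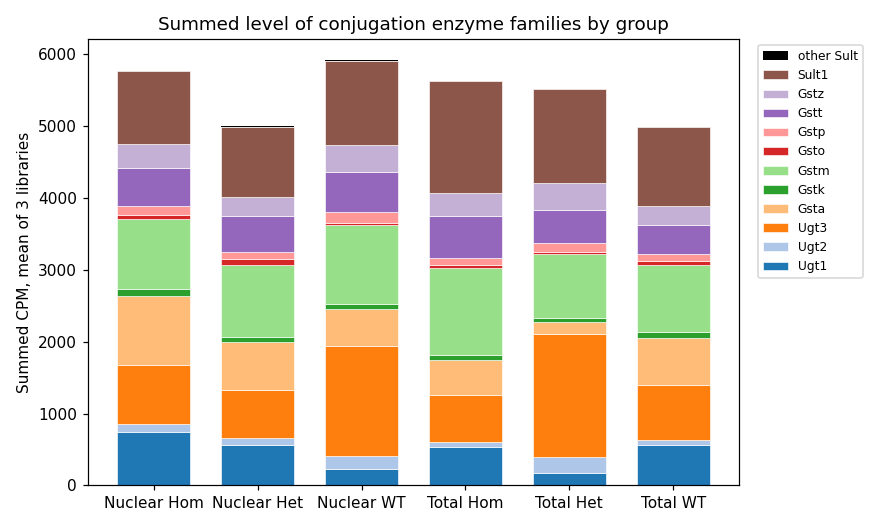
Summed level of each conjugation enzyme family in CPM (y axis, mean of 3 libraries) in the 6 groups (x axis), stacked by family. The whole stack lies between 4991 and 5915 CPM, while the Ugt1 part lies between 171 and 746 CPM and the Ugt3 part between 658 and 1709 CPM.

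Per kilobase of the deposited gene length, the scale on which genes can be compared with each other, Gstm1, Sult1d1 and Ugt3a2 were among the 4 highest members in all 6 groups, and Gsta2 in 5 of them. Gstm1 reached 691 CPM per kb in total Hom, Ugt3a2 627 in total Het, Sult1d1 584 in total Hom and Gsta2 584 in nuclear Hom. Gsta4 followed with a highest group mean of 278 CPM per kb, in nuclear Hom, and Ugt1a2 reached 172 CPM per kb in the same group. The exception was total Het, where Gsta2 had a level of 80.8 CPM per kb, against 421 CPM per kb in total WT.

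Changes between groups were tested with edgeR's quasi-likelihood test over all genes, and a gene is called changed at a Benjamini-Hochberg adjusted p under 0.05. In nuclear RNA, Hom against Het, 25 of 40 members were called, 17 higher and 8 lower. Of all 15112 genes tested there, 43.2% were called, 21.4% higher and 21.8% lower. In total RNA, Hom against Het, 38 of 42 members were called, 22 higher and 16 lower, against 67% of all 15051 genes (32.9% higher and 34.1% lower). The libraries of a group lay close together, with a coefficient of variation beyond counting of 3.05% in nuclear and 3.90% in total RNA. The median absolute log2 change of the members was 0.344 in nuclear Hom against Het, beside 0.142 over all genes, and 0.963 in total Hom against Het, beside 0.296. A called change of at least 2-fold was found for 2 of 40 members in nuclear RNA, Gstp3 and Ugt2b37, both under 5 CPM there (5.67% of all genes), and for 17 of 42 in total RNA (9.04% of all genes). Of these 17, Gsta1, Gstp3 and Ugt2b5 stayed under 5 CPM in every group.

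The Ugt1a locus gave the largest change. Ugt1a2, 1 of the genes of the locus with a first exon of its own, had 433, 429 and 422 CPM in the total Hom libraries, against 0.851, 1.04 and 1.37 CPM in total Het and 489.8, 489 and 484 CPM in total WT. In nuclear RNA it had 547, 557 and 550.2 CPM in Hom, 432, 422 and 412 CPM in Het and 3.69, 5.13 and 4.61 CPM in WT. It was thus almost absent from total Het and nuclear WT and abundant in the other 4 groups, with no overlap between these sets of libraries. The log2 change was 8.63 ± 0.047 (SE) in total Hom against Het, 395-fold (edgeR adjusted p = 3.6e-163), and 0.39 ± 0.026 in nuclear Hom against Het (edgeR adjusted p = 1.35e-22). Ugt1a2 took 80.4%, 0.639% and 87.1% of all counts given to Ugt1a genes in total Hom, Het and WT, and 74.0%, 75.2% and 1.93% in nuclear Hom, Het and WT.

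Ugt1a1, which conjugates bilirubin, followed Ugt1a2 at a lower level. It had 8.72, 7.91 and 9.71 CPM in total Hom, against 0.624, 0.521 and 0.312 CPM in total Het and 7.56, 6.56 and 7.01 CPM in total WT. The nuclear libraries had 13.0, 14.7 and 11.6 CPM in Hom, 12.2, 11.3 and 11.01 CPM in Het and 1.78, 1.36 and 1.59 CPM in WT. In total RNA Hom was higher than Het by 4.15 ± 0.2 on the log2 scale (edgeR adjusted p = 2.43e-42). In nuclear RNA the Hom and Het libraries overlapped, and the log2 difference of 0.19 ± 0.088 did not pass the test (edgeR adjusted p = 0.0674).

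Ugt1a10 and Ugt1a9 did not follow them. Ugt1a10 had 34.0, 31.4 and 30.7 CPM in total Hom, against 93.8, 87.1 and 86.6 CPM in total Het and 43.6, 44.2 and 43.3 CPM in total WT, so total Het was the highest of the 3 without overlap. In nuclear RNA it had 126, 134 and 133 CPM in Hom, 90.2, 80.4 and 86.3 CPM in Het and 134, 138 and 142 CPM in WT, and here Het was the lowest. Its log2 change in Hom against Het was -1.47 ± 0.044 in total RNA (edgeR adjusted p = 1.85e-66) and 0.61 ± 0.036 in nuclear RNA (edgeR adjusted p = 2.44e-26). Ugt1a9, an enzyme of phenol glucuronidation, had 3.40, 2.80 and 2.88 CPM in total Hom, against 8.74, 10.7 and 9.60 CPM in total Het and 3.12, 2.45 and 2.14 CPM in total WT. Its nuclear values were 3.75, 3.67 and 3.50 CPM in Hom, 3.46, 3.05 and 3.26 CPM in Het and 13.1, 12.9 and 13.2 CPM in WT. Nuclear WT and total Het, the groups with little Ugt1a2, thus had the most Ugt1a9. It fell in total Hom against Het (log2 -1.67 ± 0.14, edgeR adjusted p = 3.58e-23) and did not pass the test in nuclear RNA (0.16).

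Ugt1a6a and Ugt1a6b, which conjugate planar phenols, stayed below 9 CPM. Ugt1a6b had 1.88, 1.87 and 1.57 CPM in total Hom, against 5.34, 5.50 and 4.99 CPM in total Het and 1.66, 0.989 and 1.51 CPM in total WT, and it had 2.82, 3.50 and 2.92 CPM in nuclear Hom, 3.36, 3.50 and 3.58 CPM in nuclear Het and 7.01, 6.06 and 6.81 CPM in nuclear WT. Ugt1a6a had 3.35, 3.88 and 3.39 CPM in total Hom, against 5.22, 5.27 and 6.42 CPM in total Het and 2.12, 2.81 and 2.29 CPM in total WT, and its nuclear values were 4.12, 3.41 and 4.18 CPM in Hom, 6.25, 6.35 and 5.72 CPM in Het and 6.79, 8.02 and 7.80 CPM in WT. Ugt1a6a was lower in Hom than in Het in both fractions without overlap, with a log2 change of -0.66 ± 0.15 in total RNA (edgeR adjusted p = 3.58e-05) and -0.65 ± 0.13 in nuclear RNA (edgeR adjusted p = 1.46e-05). Ugt1a6b fell in total RNA (log2 -1.57 ± 0.18, edgeR adjusted p = 2.26e-14), and its nuclear libraries overlapped. Ugt1a7c averaged 54.7, 59.2 and 14.9 CPM in total Hom, Het and WT, and 38.5, 28.7 and 59.9 CPM in nuclear Hom, Het and WT. It rose in nuclear Hom against Het (log2 0.43 ± 0.052, edgeR adjusted p = 3.82e-11) and fell by a little in total RNA (log2 -0.11 ± 0.044, edgeR adjusted p = 0.0194).

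**Figure D2:**
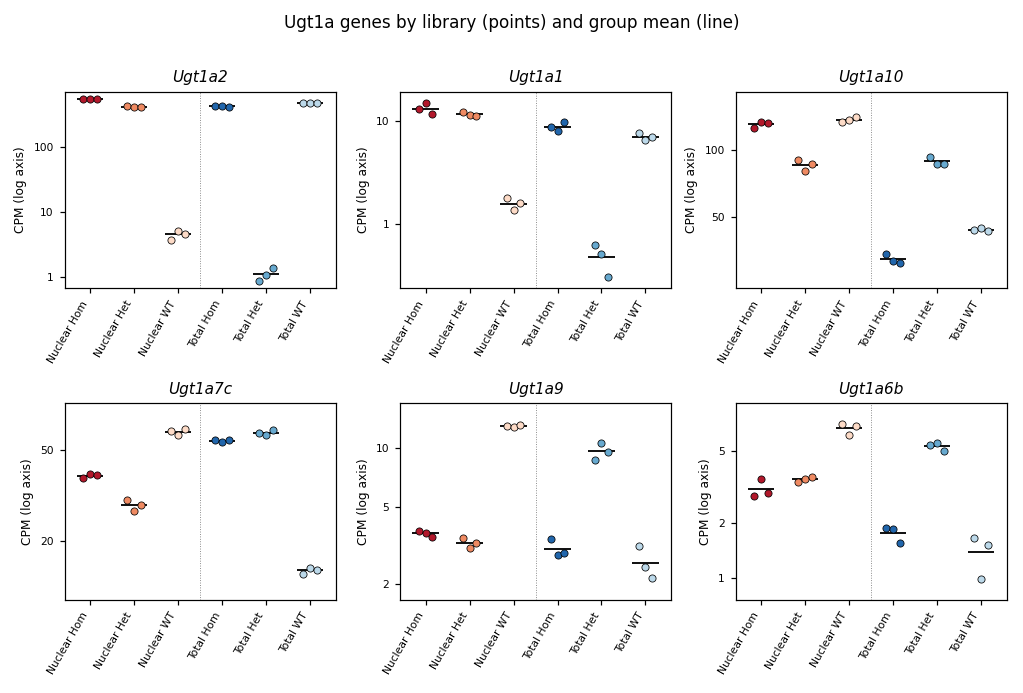
Level of 6 Ugt1a genes in CPM (y axis, log scale) in the 6 groups (x axis), 1 panel per gene, with a point per library and a line at the group mean. Ugt1a2 and Ugt1a1 are lowest in nuclear WT and total Het, the groups in which Ugt1a9 and Ugt1a6b are highest.

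Because the Ugt1a genes share exons, the share of 50-base stretches of a gene's GENCODE transcripts that also occur in another gene was measured, and it was 52.1% to 80.2% for the 8 Ugt1a genes. Reads from the common exons cannot be given to 1 gene, and how the authors' counting treated them is not given in the sources used here, so the split between Ugt1a genes carries that uncertainty. With the 8 genes summed to 1 row, the log2 change was 1.65 ± 0.022 in total Hom against Het (edgeR adjusted p = 2.82e-112) and 0.41 ± 0.024 in nuclear Hom against Het (edgeR adjusted p = 7.48e-28). The sum differed by a log2 change of -0.07 ± 0.021 in total Hom against WT (edgeR adjusted p = 0.00243), which is small beside the change within the locus.

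Among the Ugt2 genes, which act on steroids, bile acids and drugs, Ugt2b37 covered the widest range. It had 29.4, 30.3 and 27.6 CPM in total Hom, against 148, 159 and 155 CPM in total Het and 1.71, 1.41 and 1.41 CPM in total WT. In nuclear RNA it had 1.62, 1.05 and 1.36 CPM in Hom, 4.07, 3.35 and 3.15 CPM in Het and 114, 108 and 119 CPM in WT. Total Het and nuclear WT were the high groups and total Hom lay in between, and none of these 3 overlapped with another group. Ugt2b37 fell in Hom against Het in total RNA (log2 -2.40 ± 0.04, edgeR adjusted p = 2.89e-98) and in nuclear RNA (log2 -1.40 ± 0.18, edgeR adjusted p = 1.49e-10), where both groups were under 5 CPM. Its transcripts share 18.3% of their 50-base stretches with other genes.

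Ugt2a3 was also highest in total Het, at a lower level. It had 13.3, 15.3 and 14.3 CPM in total Hom, against 46.8, 47.7 and 47.4 CPM in total Het and 0.605, 1.15 and 0.682 CPM in total WT. Its nuclear values were 1.48, 1.09 and 1.72 CPM in Hom, 1.56, 2.69 and 2.62 CPM in Het and 8.198, 8.73 and 9.72 CPM in WT. In total RNA it fell in Hom against Het (log2 -1.72 ± 0.068, edgeR adjusted p = 4.96e-52). In nuclear RNA it was called lower (log2 -0.68 ± 0.22, edgeR adjusted p = 0.0069), although its Hom and Het libraries overlapped at under 3 CPM.

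Ugt2b34 ran the other way. It had 20.1, 21.8 and 21.8 CPM in total Hom, against 16.6, 16.9 and 19.9 CPM in total Het and 71.3, 74.7 and 74.3 CPM in total WT. Its nuclear values were 100.5, 101 and 105 CPM in Hom, 97.8, 96.7 and 96.8 CPM in Het and 51.1, 48.8 and 54.7 CPM in WT, and no 2 of the 6 groups overlapped. It was among the 3 members at or over 5 CPM that differed least between Hom and Het over both fractions, with log2 values of 0.26 in total and 0.07 in nuclear RNA. The other 2 were Gstt1 (0.22 in total and 0.07 in nuclear RNA) and Gstm5 (0.33 in total and 0.18 in nuclear RNA).

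The 2 Ugt3 enzymes use other sugar donors than glucuronic acid in human. Ugt3a2 had 519.8, 485 and 499 CPM in total Hom, against 1345, 1393 and 1396 CPM in total Het and 618, 619.8 and 605 CPM in total WT. It had 699, 710.3 and 718 CPM in nuclear Hom, 565, 557 and 561 CPM in nuclear Het and 1257, 1264 and 1284 CPM in nuclear WT. Total Het and nuclear WT were again the high groups, each above every library of the other 4. Ugt3a2 was lower in total Hom than in Het (log2 -1.45 ± 0.018, edgeR adjusted p = 5.15e-101) and higher in nuclear Hom than in Het (log2 0.34 ± 0.022, edgeR adjusted p = 4.21e-25). Ugt3a1 had 159, 155 and 156 CPM in total Hom, against 324, 334 and 336 CPM in total Het and 144, 146 and 146 CPM in total WT. It had 108, 108 and 107 CPM in nuclear Hom, 109, 104 and 104 CPM in nuclear Het and 255, 261 and 262 CPM in nuclear WT. It fell in total Hom against Het (log2 -1.07 ± 0.026, edgeR adjusted p = 5.77e-78), and its nuclear Hom and Het libraries overlapped.

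**Figure D3:**
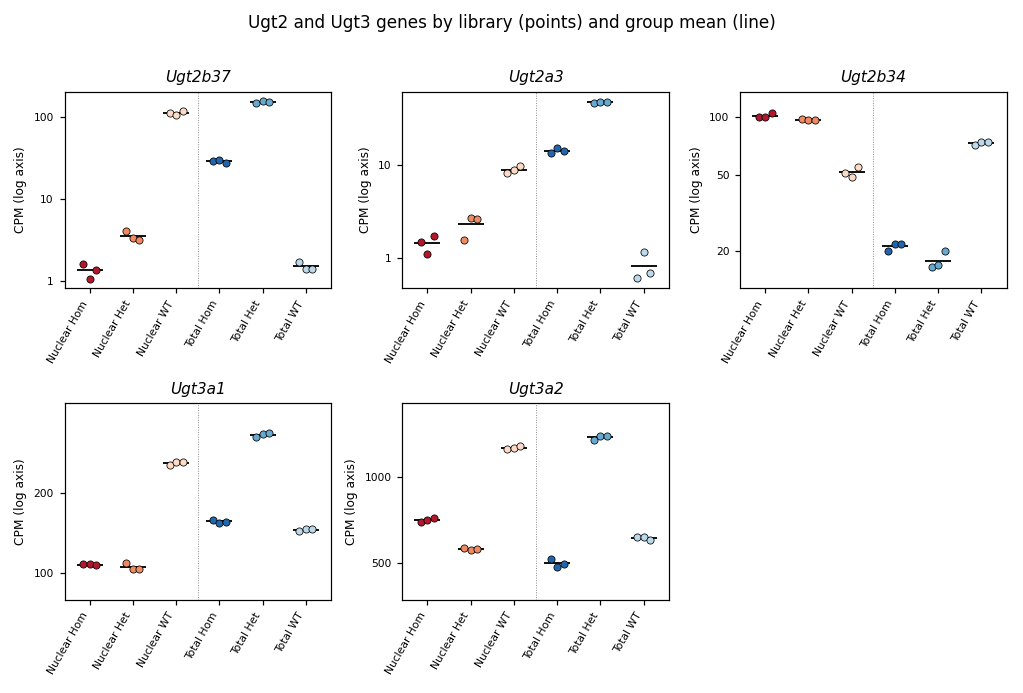
Level of 3 Ugt2 and 2 Ugt3 genes in CPM (y axis, log scale) in the 6 groups (x axis), with a point per library and a line at the group mean. Ugt2b37, Ugt2a3, Ugt3a1 and Ugt3a2 are highest in total Het or nuclear WT, and Ugt2b34 is lowest in total Het.

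All 4 Gsta genes, whose alpha-class enzymes conjugate electrophiles and reduce lipid peroxides, rose in Hom against Het in both fractions, under each of the 3 scalings tried (TMM, RLE and library totals). With TMM, 21.4% of all genes were called higher in nuclear and 32.9% in total RNA. Gsta1 had only 3, 2 and 1 counts in the total Het libraries. Gsta2 had 265, 272 and 271 CPM in total Hom, against 63.6, 71.2 and 72.5 CPM in total Het and 366, 360.1 and 353 CPM in total WT. It had 482, 512 and 503 CPM in nuclear Hom, 329.9, 324 and 316 CPM in nuclear Het and 335, 341 and 342 CPM in nuclear WT. The low group was total Het, whose libraries lay below all 15 others. Gsta2 was 3.91-fold higher in total Hom than in Het (log2 1.97 ± 0.029, edgeR adjusted p = 3.58e-91) and 1.54-fold higher in nuclear Hom than in Het (log2 0.62 ± 0.025, edgeR adjusted p = 1.7e-38). It shares 49.8% of its 50-base stretches with other genes, and Gsta1, its close copy with at most 1.25 CPM in a group mean, shares 90.5%, so the reads of this pair may be split.

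Gsta4, which acts on 4-hydroxynonenal, a product of lipid peroxidation, had 90.2, 87.6 and 89.1 CPM in total Hom, against 32.2, 31.6 and 32.5 CPM in total Het and 162, 169 and 163 CPM in total WT. It had 256, 269 and 274 CPM in nuclear Hom, 199, 189 and 192 CPM in nuclear Het and 56.2, 57.9 and 61.7 CPM in nuclear WT. No 2 of the 6 groups overlapped. Its log2 change in Hom against Het was 1.48 ± 0.04 in total RNA (edgeR adjusted p = 4.68e-72) and 0.46 ± 0.03 in nuclear RNA (edgeR adjusted p = 2.19e-24), and it shares none of its 50-base stretches with another gene. Gsta3 had 134, 131 and 131 CPM in total Hom, against 65.2, 69.9 and 64.0 CPM in total Het and 135, 129.9 and 131 CPM in total WT. Its nuclear values were 193, 204 and 207 CPM in Hom, 142, 139 and 137 CPM in Het and 119, 121 and 117 CPM in WT. Total Het was the lowest group, and total Hom and total WT overlapped. Its log2 change in Hom against Het was 0.996 ± 0.034 in total RNA (edgeR adjusted p = 2.05e-59) and 0.53 ± 0.031 in nuclear RNA (edgeR adjusted p = 8.99e-28).

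The mu-class Gstm genes went both ways. In total RNA, Hom against Het, 5 of 7 tested rose and 1 fell, beside 32.9% and 34.1% of all genes (median log2 0.445). In nuclear RNA 1 of 6 rose and 2 fell, beside 21.4% and 21.8% of all genes (median log2 0.00166, and -0.0532 with library totals alone). Gstm1, the most abundant of them, averaged 894 ± 7.99, 659 ± 7.81 and 651 ± 13.1 CPM in total Hom, Het and WT, and 694 ± 3.74, 731 ± 15.9 and 809.9 ± 10.6 CPM in nuclear Hom, Het and WT. It rose in total Hom against Het (log2 0.45 ± 0.018, edgeR adjusted p = 1.23e-51) and fell in nuclear Hom against Het (log2 -0.08 ± 0.022, edgeR adjusted p = 0.00348). Gstm2 had 134, 131 and 129.6 CPM in total Hom, against 80.4, 81.3 and 78.8 CPM in total Het and 126, 123.4 and 125 CPM in total WT. It had 118, 122 and 117 CPM in nuclear Hom, 145, 138 and 139 CPM in nuclear Het and 135, 133 and 132 CPM in nuclear WT, so the fractions differed in direction. Its log2 change in Hom against Het was 0.72 ± 0.033 in total RNA (edgeR adjusted p = 1.22e-45) and -0.24 ± 0.032 in nuclear RNA (edgeR adjusted p = 7.23e-10). Gstm5 had 145, 153 and 148 CPM in total Hom, 116, 120.1 and 122 CPM in total Het and 122, 124 and 126 CPM in total WT, and 108, 110.2 and 109 CPM in nuclear Hom, 99.5, 97.5 and 92.7 CPM in nuclear Het and 116, 115 and 117 CPM in nuclear WT. In both fractions its Hom libraries lay above its Het libraries without overlap. Gstm4 and Gstm7 stayed between 12.4 and 26.5 CPM in the 6 group means.

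Gsto1, an omega-class enzyme that reduces dehydroascorbate and disulfides, had 40.2, 36.6 and 38.2 CPM in total Hom, against 17.7, 20.3 and 17.7 CPM in total Het and 45.0, 48.8 and 45.5 CPM in total WT. It had 58.6, 60.1 and 62.8 CPM in nuclear Hom, 68.7, 70.8 and 70.8 CPM in nuclear Het and 29.3, 27.3 and 28.1 CPM in nuclear WT. It rose in total Hom against Het (log2 1.05 ± 0.06, edgeR adjusted p = 1.48e-35) and fell in nuclear Hom against Het (log2 -0.21 ± 0.041, edgeR adjusted p = 6.27e-06). Its total Het libraries were the lowest of all 18.

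The remaining Gst genes with at least 5 CPM varied by less than 2-fold between the highest and lowest of their 6 group means, and Gstt2, a theta-class gene, varied most. Gstt2 averaged 303, 235 and 167 CPM in total Hom, Het and WT, and 221, 184 and 283 CPM in nuclear Hom, Het and WT. Gstz1, which isomerises maleylacetoacetate in tyrosine breakdown, averaged 316, 385 and 270.1 CPM in total Hom, Het and WT, and 339.5, 266 and 372 CPM in nuclear Hom, Het and WT. Gstp1, the main pi-class enzyme, averaged 89.1, 122.9 and 99.2 CPM in total Hom, Het and WT, and 114, 104 and 145 CPM in nuclear Hom, Het and WT. Both fell in total Hom against Het, with a log2 change of -0.28 ± 0.022 for Gstz1 (edgeR adjusted p = 1.11e-23) and -0.46 ± 0.034 for Gstp1 (edgeR adjusted p = 1.43e-26). Both rose in nuclear Hom against Het (log2 0.35 ± 0.026 and 0.13 ± 0.035). Gstk1, the kappa-class enzyme of mitochondria and peroxisomes, lay between 61.5 CPM in total Het and 93.1 CPM in nuclear Hom. Gstt1 had 176, 173 and 171 CPM in total Hom, 152, 145 and 153 CPM in total Het and 147, 148 and 153 CPM in total WT, and 209, 211 and 205 CPM in nuclear Hom, 206, 203 and 189 CPM in nuclear Het and 178, 169.9 and 178 CPM in nuclear WT. Its Hom and Het libraries overlapped in nuclear RNA and not in total RNA. Gstt3 lay between 74.1 CPM in total Het and 109 CPM in total Hom.

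Sult1d1, which in mouse sulfates catecholamines and other small phenols, carried most of the Sult signal. It averaged 1399 ± 26.3, 988 ± 10.5 and 887 ± 15.4 CPM in total Hom, Het and WT, and 779 ± 24.4, 773 ± 18.7 and 903 ± 37.1 CPM in nuclear Hom, Het and WT. It rose in total Hom against Het by log2 0.51 ± 0.016 (edgeR adjusted p = 5.78e-64), while its nuclear Hom and Het libraries overlapped. Sult1c2 had 123.4, 117 and 121 CPM in total Hom, against 285, 283 and 290.0 CPM in total Het and 179, 182 and 178 CPM in total WT. It had 197, 204 and 202 CPM in nuclear Hom, 186, 184 and 177 CPM in nuclear Het and 242, 249.8 and 257 CPM in nuclear WT. Total Het was thus highest for Sult1c2 and total Hom lowest, and the log2 change was -1.24 ± 0.027 in total Hom against Het (edgeR adjusted p = 1.47e-83). In nuclear Hom against Het Sult1c2 was called in the other direction, at log2 0.14 ± 0.029 (edgeR adjusted p = 3.75e-05).

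Sult1a1, the main phenol sulfotransferase, had 31.6, 30.9 and 33.3 CPM in total Hom, against 17.8, 15.8 and 16.6 CPM in total Het and 20.3, 20.5 and 17.98 CPM in total WT. Its nuclear values were 20.6, 20.6 and 19.5 CPM in Hom, 20.5, 18.8 and 17.1 CPM in Het and 14.7, 14.2 and 14.8 CPM in WT. It rose in total Hom against Het by log2 0.94 ± 0.068 (edgeR adjusted p = 1.08e-26), and all 3 total Hom libraries lay above the other 15. Sult2b1, which sulfates cholesterol and other sterols, had 7.96, 7.62 and 7.03 CPM in total Hom, against 3.46, 3.53 and 3.12 CPM in total Het and 7.81, 7.03 and 7.36 CPM in total WT. It had 4.77, 5.29 and 5.33 CPM in nuclear Hom, 8.05, 7.21 and 7.06 CPM in nuclear Het and 5.97, 5.24 and 5.11 CPM in nuclear WT. Its direction differed between fractions, with a log2 change in Hom against Het of 1.16 ± 0.13 in total RNA (edgeR adjusted p = 4.84e-14) and -0.54 ± 0.12 in nuclear RNA (edgeR adjusted p = 6.19e-05). Sult1b1, a thyroid hormone sulfotransferase, had 8.16, 7.67 and 7.99 CPM in total Hom, against 4.43, 4.98 and 5.86 CPM in total Het and 5.54, 5.21 and 6.04 CPM in total WT. In nuclear RNA it had 6.76, 5.60 and 6.16 CPM in Hom, 4.78, 5.13 and 4.44 CPM in Het and 5.42, 4.53 and 6.04 CPM in WT. It rose in total Hom against Het by log2 0.65 ± 0.12 (edgeR adjusted p = 1.28e-06), and all 3 total Hom libraries lay above those of total Het and total WT. Sult1b1 also rose in nuclear Hom against Het, by log2 0.36 ± 0.13 (edgeR adjusted p = 0.0142). The steroid sulfotransferases of the Sult2a genes and Sult1e1 stayed at or below 1.15 CPM in every group mean.

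**Figure D4:**
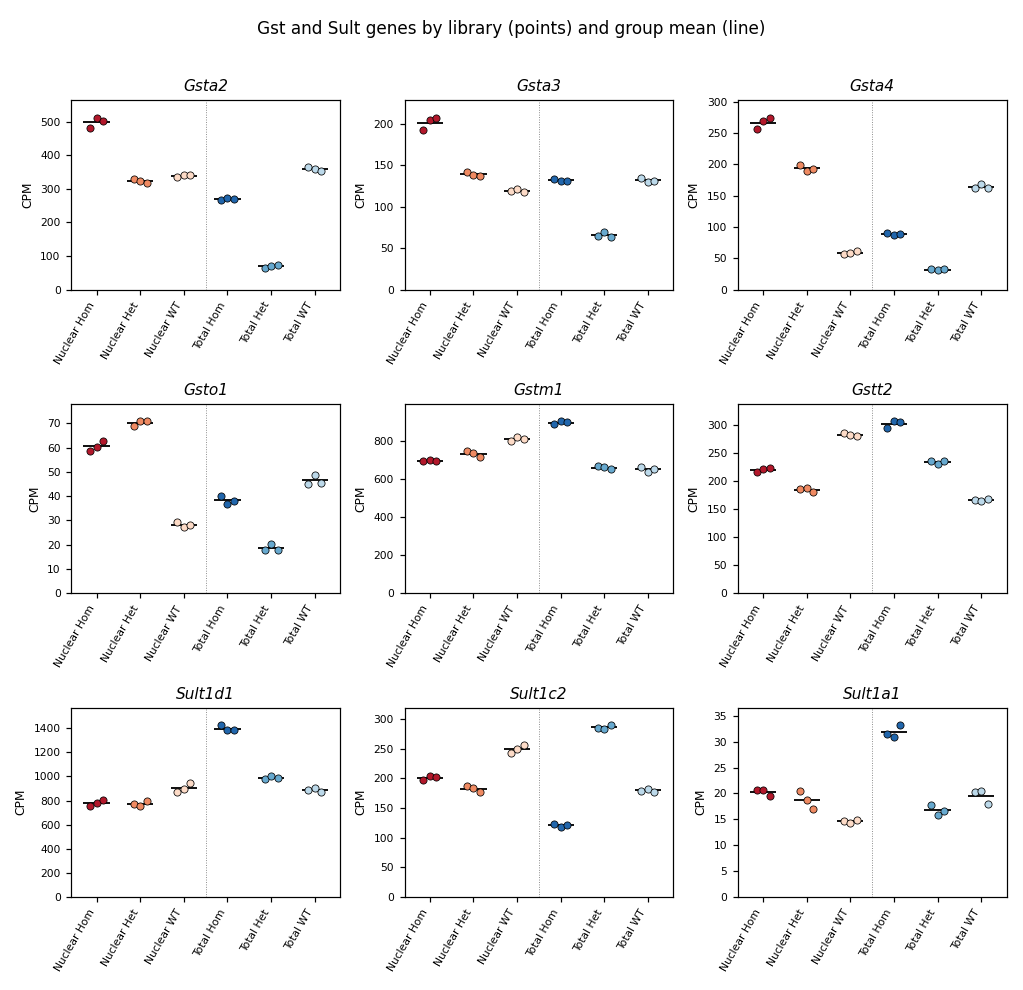
Level of 6 Gst and 3 Sult genes in CPM (y axis, from 0) in the 6 groups (x axis), with a point per library and a line at the group mean. Gsta2, Gsta3, Gsta4 and Gsto1 are lowest in total Het, where Sult1c2 is highest.

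**Figure D5:**
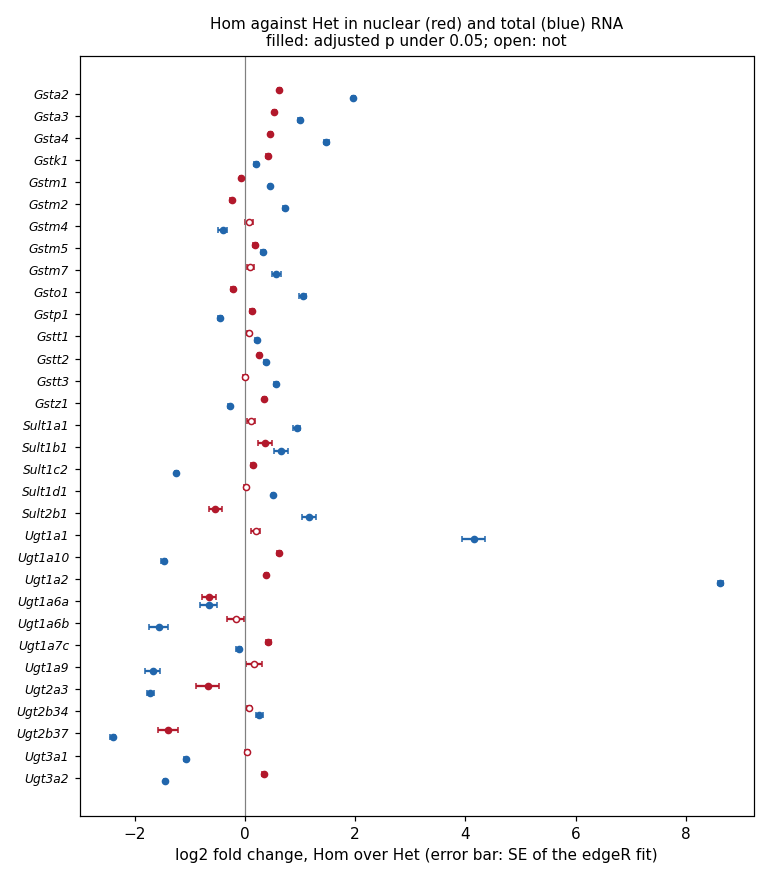
Log2 fold change of Hom over Het with the SE of the fit (x axis) for the 32 genes with at least 5 CPM in a group (y axis, grouped by family), in nuclear RNA (red) and total RNA (blue), filled where called. The blue points spread further from 0, between -2.40 for Ugt2b37 and 8.63 for Ugt1a2.

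Whether a Hom against Het change differed between fractions was tested as an interaction in the fit of all 18 libraries, where a positive value means a larger log2 change in nuclear than in total RNA. Of 46 members 38 were called, 17 higher and 21 lower, against 63.6% of all 15410 genes (31.7% higher and 31.9% lower). The difference was at least 2-fold for 21 members (16.4% of all genes). The largest values were -8.23 ± 0.064 for Ugt1a2 and -3.95 ± 0.24 for Ugt1a1, and on the positive side 2.09 ± 0.056 for Ugt1a10, 1.84 ± 0.2 for Ugt1a9 and 1.80 ± 0.028 for Ugt3a2. The largest edgeR adjusted p among these 5 was 2.77e-15. For Ugt1a10 and Ugt3a2 the change was called in opposite directions in the 2 fractions. The nuclear Hom and Het libraries express Xist and the total Hom and Het libraries express Y-linked genes, so fraction and this difference cannot be told apart in the interaction.

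Other values moved with these comparisons. In total RNA, proximal tubule markers took 4.73% of counts in Hom, against 7.32% in Het, while in nuclear RNA they took 5.10% in Hom, against 4.63% in Het. Of the 20 markers, 4 were called higher and 15 lower in total Hom against Het (32.9% and 34.1% of all genes), and 17 higher and 2 lower in nuclear RNA (21.4% and 21.8%). In these bulk samples, fewer proximal tubule cells and less RNA of these genes per cell cannot be told apart. Kap carried most of the difference in total RNA. It averaged 1827 ± 56.7 CPM in total Hom and 22974 ± 502 CPM in total Het, and 1948 ± 97.4 CPM in nuclear Hom and 1610 ± 18.7 CPM in nuclear Het. The 20 markers summed to 45924 CPM in total Hom and 79335 CPM in total Het, and without Kap the other 19 summed to 44097 CPM in total Hom and 56361 CPM in total Het. Acsm2 averaged 1557 CPM in total Hom and 7070 CPM in total Het. Other abundant markers lay the other way, with Gpx3 at 19308 and 17103 CPM, Aqp1 at 2609 and 1816 CPM, Pck1 at 1963 and 1678 CPM and Slc5a12 at 835 and 425 CPM in total Hom and Het. Immune markers (12 genes, none at 0) summed to 625 to 648 CPM in the nuclear Hom libraries, against 1786 to 1883 CPM in nuclear Het, and to 1188 to 1201 CPM in total Hom, against 1221 to 1229 CPM in total Het. The part of these differences in the results for the conjugation enzymes was not tested. Hepatocyte markers (8 genes, 1 of them at 0 in nuclear Het) summed to 693 to 718 CPM in total Hom and 1707 to 1739 CPM in total Het, and 260.0 to 271 CPM in nuclear Hom and 203 to 209 CPM in nuclear Het. Most of this was Cyp2e1, while albumin, a defining marker, averaged 2.93 and 5.40 CPM in total Hom and Het, and 21.5 and 15.8 CPM in nuclear Hom and Het.

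Beside WT, nuclear Hom and Het had more Ugt1a2, Ugt1a1 and Gsta4 and less Ugt2b37, Ugt2a3 and Ugt3a1. In nuclear Hom against WT, 32 of 40 members were called, 16 higher and 16 lower, against 54.3% of all genes (26.5% higher and 27.8% lower). In nuclear Het against WT, 35 of 40 were called, 16 higher and 19 lower, against 64.6% of all genes (32.8% higher and 31.7% lower). With library totals alone in place of TMM, 20 were higher and 14 lower in nuclear Het against WT. That scaling also moved the median of all genes upward in this comparison, and the shares of all genes given here are from TMM. A called change of at least 2-fold was found for 13 members in Hom against WT and 14 in Het against WT, beside 6.34% and 11.7% of all genes. Among these, Ugt1a5, Gstm6 and Sult5a1 in both comparisons, Gsta1 in Hom against WT and Gstp3 in Het against WT stayed under 5 CPM. In nuclear Hom against WT the members that rose most were Ugt1a2 (log2 6.96 ± 0.045, edgeR adjusted p = 1.97e-96), Ugt1a1 (3.05 ± 0.14), Gsta4 (2.19 ± 0.034), Gsto1 (1.096 ± 0.047), Ugt2b34 (0.99 ± 0.039) and Gsta3 (0.76 ± 0.031). Those that fell most were Ugt2b37 (log2 -6.40 ± 0.083, edgeR adjusted p = 4.15e-78), Ugt2a3 (-2.64 ± 0.16), Ugt1a9 (-1.84 ± 0.11), Ugt3a1 (-1.26 ± 0.03), Ugt1a6b (-1.10 ± 0.14) and Ugt1a6a (-0.95 ± 0.12). For Het against WT the rises were Ugt1a2 (log2 6.57 ± 0.045), Ugt1a1 (2.86 ± 0.14), Gsta4 (1.73 ± 0.034), Gsto1 (1.31 ± 0.047), Ugt2b34 (0.92 ± 0.04) and Sult2b1 (0.45 ± 0.12). The falls were Ugt2b37 (log2 -5.00 ± 0.07), Ugt1a9 (-2.00 ± 0.11), Ugt2a3 (-1.96 ± 0.15), Ugt3a1 (-1.29 ± 0.031), Ugt3a2 (-1.17 ± 0.022) and Ugt1a7c (-1.06 ± 0.049). The largest edgeR adjusted p among these 24 changes was 0.000517. These 2 comparisons share the 3 nuclear WT libraries, which express Y-linked genes while the Hom and Het libraries express Xist. Kap averaged 14529 ± 565 CPM in nuclear WT and 5401 ± 79.8 CPM in total WT, and its part in these comparisons was not tested.

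In total RNA, Hom and Het both had more Ugt2b37, Ugt2a3 and Ugt1a7c than WT and less Ugt2b34, Gsta4 and Gsta2. These 2 comparisons share the 3 total WT libraries. Total Hom against WT called 32 of 42 members, 18 higher and 14 lower, against 61.6% of all genes (30.6% higher and 31% lower). Total Het against WT called 35 of 42, 17 higher and 18 lower, against 61.1% of all genes (30.9% higher and 30.3% lower). With library totals alone, 14 were higher and 23 lower in total Het against WT. That scaling also moved the median of all genes downward in this comparison, and the shares of all genes given here are from TMM. A called change of at least 2-fold was found for 8 members in Hom against WT (7.33% of all genes) and 22 in Het against WT (7.91% of all genes). Among these, Sult6b2, Gstm3, Sult1e1 and Gstp3 in both comparisons, and Gsta1 and Gstm6 in Het against WT, stayed under 5 CPM. Total Hom was higher than WT for Ugt2b37 (log2 4.27 ± 0.1, edgeR adjusted p = 2.04e-78), Ugt2a3 (4.15 ± 0.14), Ugt1a7c (1.88 ± 0.055), Gstt2 (0.87 ± 0.025), Sult1a1 (0.71 ± 0.064) and Sult1d1 (0.66 ± 0.016). It was lower for Ugt2b34 (log2 -1.79 ± 0.05, edgeR adjusted p = 3.07e-69), Gsta4 (-0.88 ± 0.031), Sult1c2 (-0.57 ± 0.027), Ugt1a10 (-0.44 ± 0.049), Gsta2 (-0.41 ± 0.026) and Ugt3a2 (-0.29 ± 0.018). Ugt1a2 differed by a log2 change of -0.18 ± 0.023 in total Hom against WT. Total Het was higher than WT for Ugt2b37 (log2 6.67 ± 0.071, edgeR adjusted p = 2.76e-124), Ugt2a3 (5.86 ± 0.12), Ugt1a7c (1.99 ± 0.056), Ugt1a6b (1.92 ± 0.19), Ugt1a9 (1.91 ± 0.14) and Ugt1a6a (1.23 ± 0.16). It was lower for Ugt1a2 (log2 -8.81 ± 0.046, edgeR adjusted p = 2.92e-165), Ugt1a1 (-3.82 ± 0.21), Gsta2 (-2.38 ± 0.029), Gsta4 (-2.36 ± 0.037), Ugt2b34 (-2.05 ± 0.054) and Gsto1 (-1.32 ± 0.058). The largest edgeR adjusted p among these 24 changes was 1.1e-11. Without total WT replicate 1, all the genes named here stayed called in the same direction.

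The difference between Hom and WT was compared between fractions in the same way, and 40 of 46 were called, 22 higher and 18 lower, against 56.1% of all genes (28.4% higher and 27.7% lower). With a minimum mean of 5 CPM, 30 members were tested and 25 called, 11 higher and 14 lower. The difference was at least 2-fold for 24 of the 46 (12.3% of all genes). The largest values were 7.15 ± 0.051 for Ugt1a2, 3.07 ± 0.047 for Gsta4, 2.78 ± 0.061 for Ugt2b34 and 2.73 ± 0.19 for Ugt1a1, and on the negative side -10.66 ± 0.13 for Ugt2b37, -6.78 ± 0.22 for Ugt2a3, -2.52 ± 0.072 for Ugt1a7c and -2.08 ± 0.2 for Ugt1a9. The largest edgeR adjusted p among these 8 was 1.57e-17. Nuclear Hom and total WT express Xist while nuclear WT and total Hom do not, so this interaction and the Xist difference cannot be told apart.

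Nuclear and total RNA of the same genotype were compared directly in the fit of all 18 libraries. In Hom, 37 of 46 members were called, 23 higher in nuclear RNA and 14 lower, against 60.3% of all genes (30.5% higher and 29.8% lower). In Het, 36 of 46 were called, 20 higher and 16 lower, against 63.6% of all genes (33.4% higher and 30.2% lower). In WT, 37 of 46 were called, 19 higher and 18 lower, against 61.7% of all genes (30.9% higher and 30.8% lower), and with library totals alone 15 were higher and 23 lower. The shares of all genes given here are from TMM. A called difference of at least 2-fold was found for 9 members in Hom (7.64% of all genes), 20 in Het (11.1%) and 18 in WT (9.71%). Ugt2b34 was higher in nuclear than in total RNA of Hom (log2 2.26 ± 0.045) and of Het (2.45 ± 0.049), and lower in WT (-0.51 ± 0.041). The largest edgeR adjusted p among the changes named here is 1.62e-18. For Ugt2b37 the nuclear level was below the total level in Hom (log2 -4.44 ± 0.11) and in Het (-5.44 ± 0.065), and above it in WT (6.23 ± 0.079). Gsta4 was higher in nuclear than in total RNA of Hom (log2 1.58 ± 0.032) and of Het (2.59 ± 0.037), and lower in WT (-1.49 ± 0.034). Ugt1a10 was higher in nuclear RNA of Hom (log2 2.03 ± 0.04) and of WT (1.66 ± 0.039), and its Het libraries overlapped. Ugt1a2 was higher in nuclear RNA of Het (log2 8.60 ± 0.053) and, by less, of Hom (0.37 ± 0.025), and lower in nuclear RNA of WT (-6.78 ± 0.042). Ugt1a1 was higher in nuclear RNA of Het (log2 4.54 ± 0.19) and lower in WT (-2.14 ± 0.16), and Gsta2 was higher in nuclear RNA of Het (log2 2.23 ± 0.029) and, by less, of Hom (0.89 ± 0.026). Gsto1 was higher in nuclear RNA of Het (log2 1.92 ± 0.054) and of Hom (0.66 ± 0.046), and lower in WT (-0.71 ± 0.051). Ugt2a3 was lower in nuclear RNA of Hom (log2 -3.33 ± 0.13) and of Het (-4.38 ± 0.1), and higher in WT (3.45 ± 0.17). Sult1d1 and Sult1a1 were lower in nuclear RNA of Hom (-0.84 ± 0.022 and -0.65 ± 0.062), and Ugt3a1 and Ugt1a9 in nuclear RNA of Het (-1.65 ± 0.029 and -1.57 ± 0.13). Ugt1a9 and Ugt1a6b were higher in nuclear RNA of WT (2.35 ± 0.13 and 2.25 ± 0.17). Nuclear Hom and Het libraries express Xist where their total libraries express Y-linked genes, and in WT it is the other way round. As labelled, these comparisons are thus between different mice, not between fractions of the same sample.

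The 9 libraries with Xist over 300 CPM and the other 9 did not overlap for 8 of the 32 members with at least 5 CPM in a group. Gsta4, Gsto1 and Ugt2b34 were higher in all 9 Xist-expressing libraries, beside 3.06% of the 12144 genes that reached the same 5 CPM (2.73% of all 15410 genes tested), and Gstt2, Ugt1a7c, Ugt2a3, Ugt2b37 and Ugt3a1 were lower, beside 5.15% of those genes (4.23% of all tested). For other members total Hom, which expresses Y-linked genes, lay with the Xist-expressing groups. With the 3 total Hom libraries left out, 6 members were higher in all 9 Xist-expressing libraries (9.8% of the genes with at least 5 CPM, 8.82% of all tested), now including Ugt1a2, Ugt1a1 and Gsta3, and 11 were lower (18.8% and 15.2%), now including Ugt1a9, Ugt1a6b, Ugt3a2, Sult1c2, Gstp1 and Gstz1. Leaving libraries out can only add genes without overlap, among members and among all genes, and total Hom was left out with its values known. These libraries were sorted by Xist, not by the labels, and the values are a description.

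Of the genes listed for UDP-glucuronic acid and for glutathione supply, most fell in total Hom against Het and most rose in nuclear Hom against Het. The lists are wider than supply. Slc35a3 mainly carries UDP-N-acetylglucosamine, and Ggct, Chac1 and Chac2 break down glutathione or its products. In total Hom against Het, 7 of 8 genes on the UDP-glucuronic acid list fell and none rose (median log2 -0.372). On the glutathione list 8 of 10 fell and none rose (median -0.697). The median over all genes was 0.00624, and 32.9% of them rose and 34.1% fell. In nuclear Hom against Het, 5 of 8 and 7 of 10 rose, and 1 in each list fell (medians 0.134 and 0.236, beside -0.001 over all genes, of which 21.4% rose and 21.8% fell). Among glutathione genes in total Hom against Het, Gss, which completes glutathione, changed by log2 -1.19 ± 0.022, Gclc and Gclm, the subunits of the first enzyme of its synthesis, by -1.15 ± 0.024 and -1.03 ± 0.025, and Ggct, an enzyme of glutathione turnover, by -2.22 ± 0.061. In nuclear Hom against Het Gss rose by 0.44 ± 0.026 and Gclc by 0.33 ± 0.028. On the UDP-glucuronic acid list, Entpd5, Slc35a3, Pgm2 and Ugp2 changed by -0.50 ± 0.021, -0.54 ± 0.031, -0.47 ± 0.033 and -0.32 ± 0.027 in total Hom against Het. Entpd5, Pgm2, Ugp2 and Slc35d1, a carrier of UDP-sugars into the endoplasmic reticulum, rose by 0.39 ± 0.025, 0.29 ± 0.037, 0.17 ± 0.03 and 0.27 ± 0.057 in nuclear Hom against Het. For PAPS supply and recovery, 5 of 7 fell and 2 rose in total Hom against Het (median -0.344), led by Slc26a1, a sulfate carrier (log2 -1.05 ± 0.026), and Bpnt1, which removes the spent donor (-0.92 ± 0.026). Papss2, which makes PAPS, rose in total Hom against Het by 0.27 ± 0.021 and in nuclear Hom against Het by 0.34 ± 0.023. In nuclear RNA 4 of these 7 genes rose and none fell (median 0.0827).

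The lists for steps after conjugation are read against all genes, of which 32.9% rose and 34.1% fell in total Hom against Het (median log2 0.00624), and 21.4% rose and 21.8% fell in nuclear Hom against Het (median -0.001). The proximal tubule markers, of which Slc22a6 is also 1 of the transport genes below, had medians of -0.608 in total and 0.338 in nuclear Hom against Het. Whether these lists or those for supply moved apart from tubule genes at large was not tested. Of 11 genes that make mercapturates from glutathione conjugates or break them down again, 7 fell and 2 rose in total Hom against Het (median -0.55), and 8 rose and 1 fell in nuclear RNA (median 0.259). Nat8, which acetylates cysteine conjugates to mercapturates, averaged 309 ± 4.68 CPM in total Hom and 318 ± 3.71 CPM in total Het, and 83.8 ± 1.21 CPM in nuclear Hom and 67.5 ± 2.08 CPM in nuclear Het. Acy3 and Acy1, which remove the acetyl group from mercapturates and acetylated amino acids, changed by -2.75 ± 0.017 and -1.39 ± 0.023 in total RNA, and Ggt1, which removes the glutamyl residue of glutathione conjugates, by -1.53 ± 0.017. In nuclear RNA Acy1 rose by 0.83 ± 0.024 and Ggt1 by 0.30 ± 0.022. A list of 9 genes held the glucuronidase Gusb and sulfatases, and also genes that do not themselves remove a conjugated group, such as carboxylesterases, Sumf1 and Hgsnat. Of these 9, 8 fell and 1 rose in total Hom against Het (median -0.671). Gusb changed by -1.01 ± 0.049 and the carboxylesterase Ces1f by -2.49 ± 0.024. In nuclear RNA 2 rose and 3 fell (median 0.0207), and this median was -0.0342 with library totals alone. Of 11 genes of conjugate transport, 5 rose and 5 fell in total RNA (median 0.0945). Abcc3, an export pump for glucuronides and other conjugates, averaged 36.05 ± 0.915 CPM in total Hom and 12.4 ± 0.561 CPM in total Het, while the organic anion carriers Slc17a3 and Slc22a6 fell, with log2 changes of -2.51 ± 0.024 and -1.66 ± 0.02. In nuclear RNA 6 of these 11 rose and 2 fell, with Slc22a6 at 0.55 ± 0.024. A list of other conjugation enzymes also held enzymes that conjugate nothing, such as the epoxide hydrolases Ephx1 and Ephx2. Of its 20 tested genes, 8 rose and 10 fell in total RNA (median -0.21), and 9 rose and 6 fell in nuclear RNA. In total RNA Inmt, an amine methyltransferase, changed by -4.21 ± 0.031 and Ephx2 by -1.85 ± 0.025.

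Genes known to regulate conjugation enzymes went both ways. Of 23 tested, 9 rose and 7 fell in total Hom against Het (median log2 0.0175), shares near the 32.9% and 34.1% of all genes, and 7 rose and 2 fell in nuclear RNA (median 0.0202), beside 21.4% and 21.8% of all genes. With library totals alone 12 rose and 4 fell in total RNA (median 0.169), and 6 rose and 5 fell in nuclear RNA (median -0.0347). That scaling also raised the median of all genes in total Hom against Het, by the amount given in the last section. The shares of all genes in this paragraph are from TMM, so the values with library totals have no such shares beside them. The growth hormone receptor gene Ghr changed by -0.90 ± 0.018 in total and 0.28 ± 0.023 in nuclear RNA, and Esr1, the oestrogen receptor gene, by -1.21 ± 0.085 in total RNA. Ppara, the gene of a lipid-sensing transcription factor of the proximal tubule, rose in nuclear Hom against Het by 0.47 ± 0.032. Of 12 genes commonly used to report activity of the stress factor NRF2, 4 rose and 6 fell in total RNA (median -0.0522, and 0.101 with library totals alone), and 3 rose and 5 fell in nuclear RNA (median -0.136), beside the same shares of all genes. Nqo1 rose in total Hom against Het by 1.22 ± 0.037, while Me1 changed by -1.81 ± 0.023. The largest edgeR adjusted p among the changes named for these lists was 4.87e-05, for Slc35d1 in nuclear RNA.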

How the data were processed

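RNA-seq counts of 18 libraries were analysed. The authors deposited 1 table of whole-number counts per gene. Per the labels' protocols the libraries were stranded mRNA libraries from TRIzol-extracted RNA, and the submitters' processing notes name CASAVA, STAR 2.5.2b, featureCounts, DESeq2 and mm9. The annotation and the strand setting are not given in the sources used here. The deposited column of total WT replicate 1 held 200140709 counts and was at least the sum of the 9 nuclear columns (181106189 counts) at every gene, so that sum was subtracted and 19034520 counts were left.

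Members were chosen by symbol, and members, lists and tests were chosen with earlier results of these data known. edgeR 4.0.16 (R 4.3.3) was used with filterByExpr, TMM and the quasi-likelihood test, in 1 fit of the 9 nuclear libraries, 1 of the 9 total libraries and 1 of all 18, with Benjamini-Hochberg adjustment over all genes tested. The steps were tested on simulated data. Fold changes were given for up to 6 called rises and 6 falls per genotype comparison (4 elsewhere) with at least 5 CPM in a compared group, library values for called Hom against Het changes of at least 1.5-fold and the 3 smallest changes, and up to 4 genes per pathway list. Nat8, Abcc3, single marker genes, Gsta2 in Het and Gsto1 in Hom and Het (nuclear against total RNA) were named after their values were seen. Sequence sharing was counted in GENCODE vM21 transcripts. Alternatives were DESeq2 1.42.0, other scalings and filters, each library left out, a replicate block, Ugt1a genes summed, Rn45s removed and other sets of libraries in the fit.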

Additional observations from a re-analysis of the deposited data

Results flagged for a closer look

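In these cases the change between genotypes differed between nuclear and total RNA by an interaction test over all 18 libraries. Beside them stands the fact that the Xist-expressing and Y-expressing libraries are arranged with fraction and genotype, so that the 2 cannot be told apart, and no explanation was tested.

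For Hom against Het, 38 of 46 conjugation enzyme genes were called, against 63.6% of all 15410 genes. The log2 difference (nuclear change minus total change) was 2.09 for Ugt1a10, 1.84 for Ugt1a9, 1.80 for Ugt3a2 and 1.40 for Ugt1a6b. It was -8.23 for Ugt1a2, -3.95 for Ugt1a1, -1.70 for Sult2b1 and -1.34 for Gsta2. Sult2b1 fell in nuclear RNA and rose in total RNA, while Gsta2 rose in both.

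For Hom against WT, 40 of 46 were called, against 56.1% of all 15410 genes. The log2 difference was 7.15 for Ugt1a2, 3.07 for Gsta4, 2.78 for Ugt2b34 and 2.73 for Ugt1a1. It was -10.66 for Ugt2b37, -6.78 for Ugt2a3, -2.52 for Ugt1a7c and -2.08 for Ugt1a9. Ugt2b37 and Ugt2a3 were lower than WT in nuclear Hom and higher than WT in total Hom.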

How the results depend on the processing

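Over the 11 comparisons, 190 of 191 alternative counts of called members stayed within 1.5 times the count given. The exception was the Hom against WT interaction, with 25 called at a mean of at least 5 CPM, against 40, where the stricter filter left 30 members to test. Of 118 named changes under 1975 alternative values, 1969 kept direction and call, none reversed and 6 no longer passed the test. All 6 arose with total WT replicate 1 as deposited: Ugt2b37 (log2 -2.39, edgeR adjusted p = 0.0612) and Ugt1a6a (-0.66, edgeR adjusted p = 0.0848) in total Hom against Het, Ugt2b37 (0.82, edgeR adjusted p = 0.505) and Ugt1a10 (-1.08, edgeR adjusted p = 0.0652) in total Hom against WT, and Ugt1a6b (1.01, edgeR adjusted p = 0.0829) and Ugt1a6a (0.54, edgeR adjusted p = 0.138) in total Het against WT.

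Leaving out 1 library gave 23 to 26 calls in nuclear Hom against Het, 30 to 35 in nuclear Hom against WT, 34 to 37 in nuclear Het against WT, 38 to 39 in total Hom against Het, 31 to 35 in total Hom against WT and 33 to 36 in total Het against WT. Library totals in place of TMM moved the median of all genes by log2 0.137 in nuclear Hom against WT, 0.201 in nuclear Het against WT, 0.158 in total Hom against Het and -0.188 in total Het against WT. With the replicate number as a block, 25 members were called in nuclear and 38 in total Hom against Het, as without it. Within each fraction, same-numbered libraries of different genotypes did not deviate together, with correlations of -0.0505 to 0.0285 over 18 pairs. The numbers thus gave no sign of pairing between genotypes. Same-numbered nuclear and total libraries of a genotype were not compared in this way. As labelled, the nuclear and total libraries of each genotype differ in whether they express Xist or Y-linked genes. Under these labels they were therefore not paired fractions of the same mice.

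With 17405493 to 23462056 counts per library, members at a few counts, such as most Sult2a genes, could not be compared.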
